A study of Oryza sativa with 12 samples.

Results

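The rice genes described here had signal in peduncles of the cultivar Pokkali at both stages of heading and almost none in peduncles of the cultivar Swarna. They were chosen by the deposited FPKM values themselves (fragments scaled to transcript length and to library depth): at least 2 FPKM in both Pokkali groups and below 0.1 FPKM in both Swarna groups. Among 53561 loci that stand alone in a row of the table, 15 met this rule. A locus with more than 1 such row was represented by the row of highest mean over the 4 groups.

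The peduncle is the uppermost internode of the rice stem and carries the panicle. Pokkali, a salt-tolerant *indica* landrace of tall stature, and Swarna, a short elite *indica* cultivar, were grown in open fields. Non-elongating peduncles (NP) were taken soon after heading and elongating peduncles (EP) soon before it, so that the 4 groups were Pokkali NP, Pokkali EP, Swarna NP and Swarna EP, each with 3 libraries of total RNA. The groups were matched by stage and not by calendar date, and no plant received a treatment. The table holds 1 value per locus and group, so no error, interval or test can be given, and every difference below is a difference of 2 group values with no replicate check. The depth behind a group value is not given in the table, and the study's summary statistics of sequencing were not used here. In whole peduncles, fewer cells of a type and less RNA per cell cannot be told apart.

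Rice cultivars are known to differ in their gene content, in the sequence of the genes they share and in where and when these genes are transcribed. The elongating peduncle divides and expands its cells in an intercalary meristem at its base. After heading, growth ceases and the organ becomes a route for sugars to the filling grain. The locus identifiers used here come from the genome of the *japonica* cultivar Nipponbare, to which the reads of both *indica* cultivars were aligned. A value near 0 therefore says only that few aligned fragments were assigned to that row. None of the 15 loci occurs in the gene tables of the study, which name 3833 loci. Its lists of genes that differed between NP and EP in both cultivars could hardly include loci near 0 in Swarna. This absence was thus largely set by the rule. The reference of gene names holds none of the 15 identifiers, so the loci are called by identifier alone and no function is given.

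The highest mean level in Pokkali belonged to LOC_Os12g12115 on chromosome 12. It had 9.64 FPKM in Pokkali NP and 3.09 in Pokkali EP, against 0.0415 FPKM in Swarna NP and 0 in Swarna EP. Its assembled locus spans 314008 bp, from 6340808 to 6654815, far more than a single gene. The same span holds 62 further rows, of which 18 were listed at 0 in all groups and 7 reached 1 FPKM in some group. Of these 7, 5 reached that level in Pokkali and 2 in Swarna. LOC_Os12g12090, for example, had 3.76 FPKM in Pokkali NP but 0 in Pokkali EP and in both Swarna groups. LOC_Os12g12080 had 3.003 and 1.69 FPKM in Pokkali NP and EP, against 0.229 and 0.133 FPKM in Swarna NP and EP. LOC_Os12g11990 ran the other way after heading, with 0.340 FPKM in Pokkali NP and 2.09 in Swarna NP. The rows of this stretch thus did not all share the order of the cultivars. Here as in all that follows, loci other than the 15 were singled out after their values were seen.

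The next locus, LOC_Os06g31910 (chromosome 6, from 18531647 to 18541886), had 9.43 FPKM in Pokkali NP and 2.67 in Pokkali EP, against 0 in both Swarna groups. None of the 14 other named loci within 50 kb reached 1 FPKM in any group, and no other locus of the 15 lacked a neighbour of that level. Over all 53561 loci, 64.2% were below 1 FPKM in every group. The remaining rows that name LOC_Os06g31910 did not exceed 0.0893 FPKM in any group.

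LOC_Os01g03830 (chromosome 1, from 1608769 to 1617905) and LOC_Os01g25050 (chromosome 1, from 14128407 to 14130000) were likewise listed at 0 in both Swarna groups. LOC_Os01g03830 had 5.002 FPKM in Pokkali NP and 4.19 in Pokkali EP. For LOC_Os01g25050 the values were 2.13 and 3.55 FPKM. With LOC_Os06g31910, these 3 are the only loci of the 15 with no Swarna signal on the row used. The other 12 had a value above 0 in at least 1 Swarna group.

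Between 4 and 6 FPKM in Pokkali NP lay a group of similar level. LOC_Os06g06490 (chromosome 6, from 3040092 to 3055710) had 5.41 FPKM in Pokkali NP and 3.97 in Pokkali EP, against 0.0255 FPKM in Swarna NP and 0 in Swarna EP. LOC_Os01g37260 (chromosome 1, from 20805790 to 20810166) had 5.63 and 3.10 FPKM in Pokkali NP and EP, against 0.0398 in Swarna NP and 0 in Swarna EP. Both were thus above 3 FPKM at each stage in Pokkali and absent from the row in Swarna EP. LOC_Os12g35470 (chromosome 12, from 21571461 to 21572868) had 5.66 and 3.02 FPKM in Pokkali NP and EP, and it kept a trace in both Swarna groups, at 0.0780 FPKM in NP and 0.0535 in EP. LOC_Os12g19490 (chromosome 12, from 11326822 to 11335857) had 4.005 and 2.21 FPKM in Pokkali NP and EP, against 0 in Swarna NP and 0.0229 FPKM in Swarna EP. In all 4 loci the Pokkali value was higher after heading than before.

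LOC_Os11g39300 (chromosome 11, from 23398762 to 23407282) had 3.53 FPKM in Pokkali NP and 2.68 in Pokkali EP, against 0.0712 FPKM in Swarna NP and 0 in Swarna EP. LOC_Os02g27810 (chromosome 2, from 16465680 to 16468482) had 3.38 and 2.64 FPKM in Pokkali NP and EP, against 0 in Swarna NP and 0.0666 FPKM in Swarna EP. The trace in Swarna thus fell on different stages in these 2 loci. LOC_Os12g44040 (chromosome 12, from 27313067 to 27317290) had the lowest mean Pokkali level of the 15, with 2.61 and 2.13 FPKM in Pokkali NP and EP, against 0.0448 and 0.00522 FPKM in Swarna NP and EP. Its Pokkali values were nearly equal at the 2 stages.

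The last 4 loci were, in Pokkali, lower after heading than before, as was LOC_Os01g25050. LOC_Os09g16090 (chromosome 9, from 9825472 to 9826875) had 2.96 FPKM in Pokkali NP and 3.84 in Pokkali EP, against 0.0489 FPKM in Swarna NP and 0 in Swarna EP. LOC_Os01g73604 (chromosome 1, from 42638283 to 42644944) had 2.86 and 3.42 FPKM in Pokkali NP and EP, against 0.0865 and 0.0328 FPKM in Swarna NP and EP. The difference between the Pokkali stages was small in both. LOC_Os01g40320 (chromosome 1, from 22755827 to 22759773) had 2.07 and 3.67 FPKM in Pokkali NP and EP, against 0.0386 in Swarna NP and 0 in Swarna EP. LOC_Os12g13295 (chromosome 12, from 7409322 to 7414805) had 2.61 and 2.87 FPKM in Pokkali NP and EP, against 0.0932 and 0.00259 FPKM in Swarna NP and EP. Its Swarna NP value was the highest Swarna value among the 15.

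**Figure D1:**
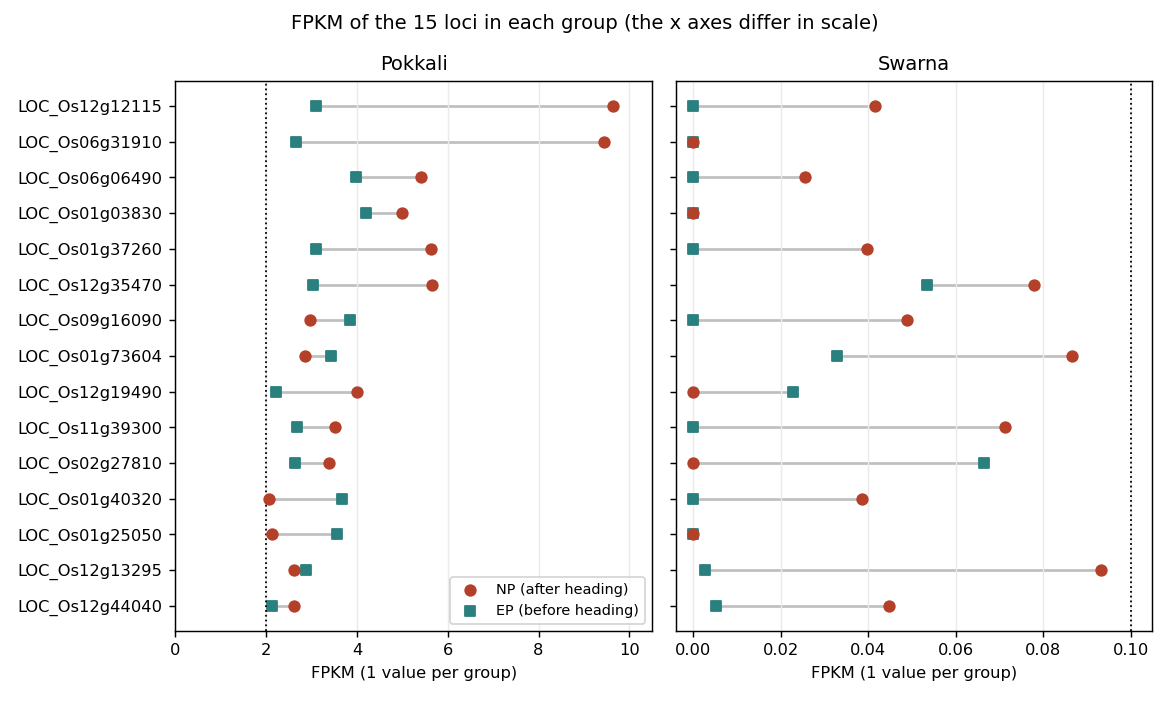
FPKM of the 15 loci (x axis, 1 value per group, different scales for the cultivars), ordered by mean Pokkali level, with circles for NP and squares for EP; dotted lines mark the limits of the rule. Pokkali NP reached 9.64 FPKM and Pokkali EP 4.19, while Swarna NP did not exceed 0.0932 FPKM and Swarna EP 0.0666.

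As a group, the 15 loci ranged from 2.07 to 9.64 FPKM in Pokkali NP (median 3.53) and from 2.13 to 4.19 in Pokkali EP (median 3.09). In Swarna NP they ranged from 0 to 0.0932 FPKM (median 0.0398), with 5 listed at 0. In Swarna EP the range was 0 to 0.0666 FPKM and 9 were listed at 0. Swarna NP was above Swarna EP in 10 loci and below it in 2. Over all 53561 loci, 42.1% were listed at 0 in Swarna NP and 48.1% in Swarna EP, and the part of this difference in the Swarna traces was not tested. On log2 of FPKM plus 0.5, Pokkali exceeded Swarna by 2.25 to 4.23 after heading in the 10 loci with a Swarna NP value above 0, and by 2.38 to 2.88 before heading in the 6 with a Swarna EP value above 0. This scale understates differences of low values. For loci listed at 0 in Swarna no fold is given.

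As chosen by the rule, these were genes of low level. The mean of the 2 Pokkali values lay between 2.37 and 6.37 FPKM (median 3.14), against a median of 13.03 FPKM over the 12390 loci with at least 2 FPKM in both Pokkali groups. Of those loci, 23.8% had a mean no higher than that of LOC_Os12g12115. No locus with at least 10 FPKM in both Pokkali groups, 5967 in number, was below 0.1 FPKM in both Swarna groups. With a minimum of 5 FPKM no locus met the rule. The Swarna limit is a fixed level and not a ratio, so it can leave out loci of higher Pokkali level with a similar ratio. Of the 46 loci added by a Swarna limit of 0.5 FPKM, 2 had at least 10 FPKM in both Pokkali groups. The part of the fixed limit in the low level was not tested.

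The 15 loci are 0.121% of the 12390 loci with this Pokkali level. The rule itself used this contrast, so the share describes the choice. With the cultivars exchanged, 92 of 11480 loci with at least 2 FPKM in both Swarna groups were below 0.1 FPKM in both Pokkali groups, which is 0.801%. The loci of that opposite set had a median mean level of 6.27 FPKM in Swarna and reached 631 FPKM, and 14 of them had at least 10 FPKM in both Swarna groups. The groups also differed in how often a locus was near 0 at all: 58.0% of all loci were below 0.1 FPKM in both Pokkali groups and 54.6% in both Swarna groups. The part of this difference in the unequal sizes of the sets was not tested.

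The limit of 0.1 FPKM does not mark a gap. Of the 12390 loci, 15 were between 0.1 and 0.2 FPKM in the higher of their Swarna groups. A further 31 were between 0.2 and 0.5, 48 between 0.5 and 1 and 170 between 1 and 2 FPKM, while 97.7% had at least 2 FPKM in the higher Swarna group. Just inside the limit stood LOC_Os12g13295, LOC_Os01g73604 and LOC_Os12g35470, with the Swarna NP values given above. Just outside stood LOC_Os09g34847, with 2.53 and 3.48 FPKM in Pokkali NP and EP against 0.111 and 0.00414 FPKM in Swarna NP and EP. LOC_Os06g16050 followed, with 4.55 and 4.43 FPKM in Pokkali NP and EP against 0.123 FPKM in Swarna NP and 0 in Swarna EP. On the Pokkali side, LOC_Os01g40320 and LOC_Os12g44040 were nearest the minimum from within. LOC_Os02g15160 missed it with 2.32 FPKM in Pokkali NP and 1.97 in Pokkali EP, and LOC_Os09g14820 with 4.14 and 1.93. In Swarna, LOC_Os02g15160 had 0.0928 FPKM in NP and 0 in EP, and LOC_Os09g14820 was listed at 0 in both groups. These loci just outside were much like the 15.

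**Figure D2:**
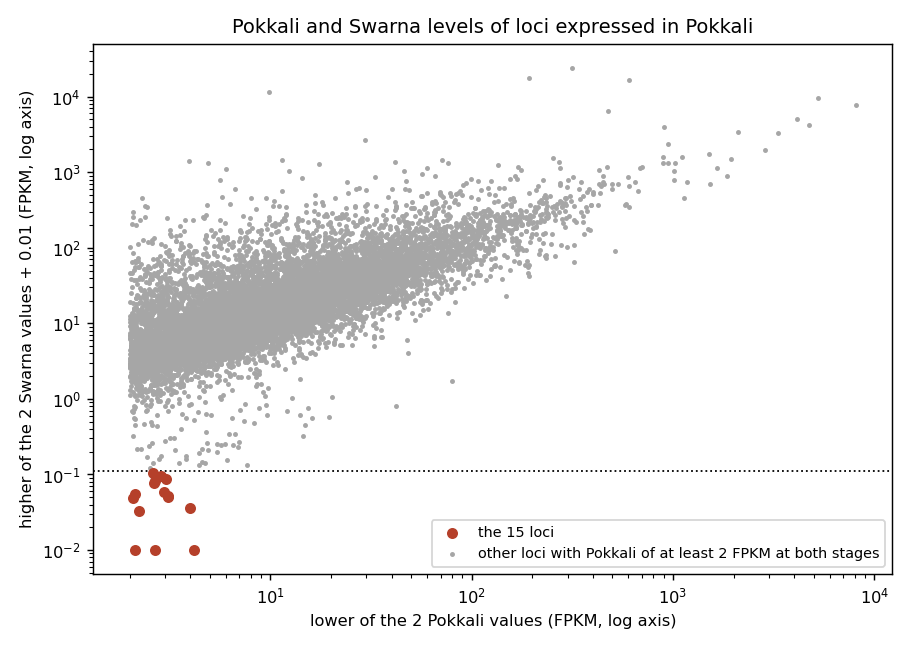
The lower Pokkali value (x axis, FPKM, log axis) and the higher Swarna value plus 0.01 (y axis, FPKM, log axis) of the 12390 loci with at least 2 FPKM in both Pokkali groups, with the 15 loci in red below the dotted limit. They sit at the low end of the Pokkali axis, and the loci thin out gradually towards them.

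The change at heading within Pokkali was not used by the rule, beyond the minimum at both stages. LOC_Os06g31910 was 3.54-fold higher in NP than in EP and LOC_Os12g12115 3.12-fold, with log2 ratios of 1.65 and 1.498 on FPKM plus 0.5. These were the only loci of the 15 with a difference of at least 2-fold upwards, 13.3% of them, against 14.2% of the 12390 loci of that Pokkali level. None was at least 2-fold lower in NP, against 9.49% of those loci. With Pokkali EP at most 4.19 FPKM, the minimum of 2 FPKM in NP left the 15 no room for a 2-fold fall on this scale. The lowest ratios were −0.70 for LOC_Os01g40320 and −0.62 for LOC_Os01g25050. The median log2 ratio of the 15 was 0.30, against 0.09 over the 12390 loci. NP exceeded EP in 10 of the 15 (66.7%) and in 54.7% of the 12390 loci. LOC_Os01g03830 turned to the EP side when the columns were brought to equal sums, which moves the median ratio of all expressed loci by −0.18. The share of the 15 at least 2-fold higher in NP was thus near that of the 12390 loci. Those loci were not matched in level, with a median Pokkali mean of 13.03 FPKM against 3.14 in the 15.

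**Figure D3:**
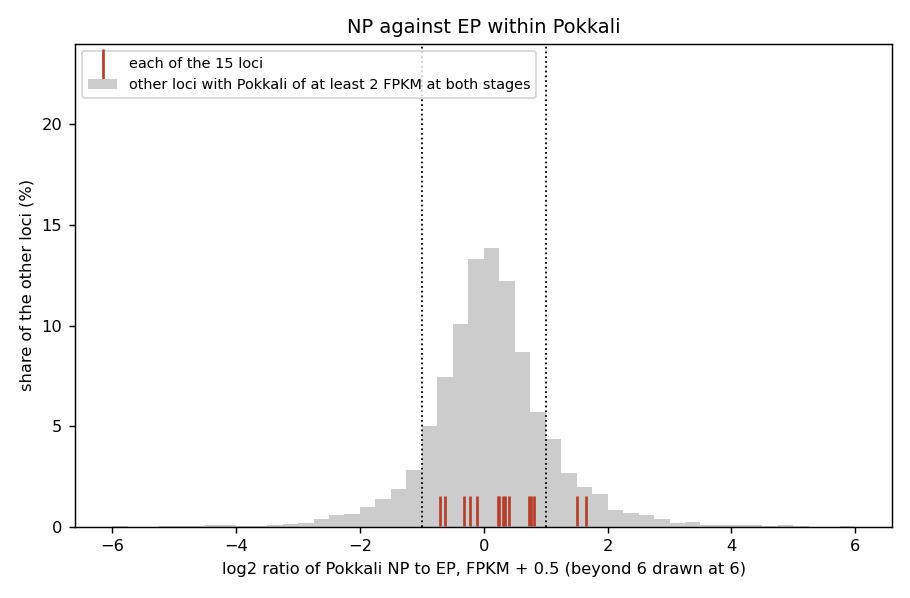
Log2 ratio of Pokkali NP to Pokkali EP on FPKM plus 0.5 (x axis) for the 15 loci (red ticks) and the share of the other loci with at least 2 FPKM in both Pokkali groups (grey bars, y axis in percent); dotted lines mark 2-fold. The ticks run from −0.70 to 1.65, and 2 of them lie beyond 2-fold.

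A locus can be divided over several rows of the merged assembly, so Swarna signal was also looked for on the other rows. For 6 of the 15, another row named the same locus. LOC_Os01g40320 had a second row with 0.305 and 0.0657 FPKM in Pokkali NP and EP, against 1.16 and 0.271 FPKM in Swarna NP and EP. On that row Swarna was the higher cultivar, so LOC_Os01g40320 was not without signal in Swarna. LOC_Os01g03830 showed the same on a smaller scale, with 0.00568 and 0.00232 FPKM in Pokkali NP and EP, against 0.0633 and 0.488 FPKM in Swarna NP and EP on its second row. A further row of it did not exceed 0.0269 FPKM in any group. The table gives no strand, so rows of the same span cannot be assigned to one or the other.

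LOC_Os06g06490 is also named by a row that joins it with LOC_Os06g06460 and LOC_Os06g06480. That row had 1.53 and 3.9997 FPKM in Pokkali NP and EP, against 0.295 and 5.83 FPKM in Swarna NP and EP. Swarna signal before heading on the joined row cannot be divided among the 3 loci. LOC_Os06g06470 is listed at the same span as LOC_Os06g06490. It had 27.3 and 11.9 FPKM in Pokkali NP and EP, against 14.8 and 1.55 FPKM in Swarna NP and EP. The span was thus not without signal in Swarna. The further rows of LOC_Os01g25050 and LOC_Os12g19490 were listed at 0 in Swarna. When all rows that name a locus alone were summed, 13 of the 15 still met the rule, and when joined rows were added, 12 did. For these 3 loci (LOC_Os01g03830, LOC_Os01g40320 and LOC_Os06g06490), the near absence from Swarna was thus seen on a row of the assembly only. Of the 15, 5 had several rows of their own (33.3%), against 25.1% of the 12390 loci of that Pokkali level.

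The 15 loci lay on 6 chromosomes. Chromosomes 1 and 12 held 5 each, chromosome 6 held 2, and chromosomes 2, 9 and 11 held 1 each. Of the 12390 loci of that Pokkali level, 14.5% were on chromosome 1 and 5.03% on chromosome 12. None was within 50 kb of another, and the smallest distance was 755 kb, between LOC_Os12g12115 and LOC_Os12g13295. No like measure over the 12390 loci stands beside these distances, so they are a description only and not a trait of the 15.

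The genes around them offer a readout that the rule did not use. Within 50 kb of the 15 loci and outside their spans, 78 other named loci had at least 1 FPKM in some group. In 7 of them (8.97%), Pokkali exceeded Swarna at least 2-fold at both stages, against 4.91% of all other expressed loci. At least 2-fold lower in Pokkali at both stages were 4 (5.13%), against 3.9%. The median log2 ratio of Pokkali to Swarna over the 78 was 0.20 in NP and −0.04 in EP. Over all 19153 expressed loci it was −0.02 in NP and 0.06 in EP. The remaining 67 of the 78 passed 2-fold in neither direction at both stages. Neighbours of 1 locus share a region and are not independent. A further 7 expressed loci share a span with one of the 15, and 2 of them, LOC_Os12g12080 and LOC_Os12g19480, were at least 2-fold higher in Pokkali at both stages. With these 7 added, 9 of 85 (10.6%) were higher and 4 (4.71%) lower. Loci of a shared span are not separate from the row that the rule chose. The 4.91% is a share over all other expressed loci, not over loci that share a span. Around 6 of the 14 loci with expressed neighbours, no neighbour or locus of the same span differed in this way.

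Among the neighbours higher in Pokkali, LOC_Os01g37280 lies 6.79 kb from LOC_Os01g37260. It had 6.998 and 8.03 FPKM in Pokkali NP and EP, against 0.261 FPKM in Swarna NP and 0 in Swarna EP. LOC_Os09g16110, 5.09 kb from LOC_Os09g16090, had 2.02 and 1.16 FPKM in Pokkali NP and EP and was listed at 0 in both Swarna groups. It missed the rule only by its EP value. Next to LOC_Os12g19490, LOC_Os12g19470 had 204 and 29.6 FPKM in Pokkali NP and EP, against 4.20 and 11.6 FPKM in Swarna NP and EP. LOC_Os12g19480, which shares the span of LOC_Os12g19490, had 2.002 and 0.849 FPKM in Pokkali NP and EP, against 0.0569 in Swarna NP and 0 in Swarna EP.

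On chromosome 11, some loci near LOC_Os11g39300, in part beyond 50 kb, shared its pattern without meeting the rule. LOC_Os11g39254, 20.025 kb away, had 2.75 and 2.43 FPKM in Pokkali NP and EP, against 0.0797 and 0.159 FPKM in Swarna NP and EP. LOC_Os11g39209, at 50.2 kb, had 7.21 and 5.45 FPKM in Pokkali NP and EP, against 0.245 in Swarna NP and 0 in Swarna EP. LOC_Os11g39190, at 61.3 kb, had 9.10 and 7.64 FPKM in Pokkali NP and EP, against 0.125 in Swarna NP and 0 in Swarna EP. LOC_Os11g39230, which lies among them, did the reverse, with 0 in Pokkali NP and 0.00549 FPKM in Pokkali EP, against 0.803 and 3.20 FPKM in Swarna NP and EP. The stretch thus held loci near 0 in either cultivar. With the Swarna limit at 0.5 FPKM, 46 further loci met the rule. Of the 15, 2 had such a locus within 200 kb (13.3%), against 3.90% of the 12390 loci of that Pokkali level.

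Of the 6 expressed neighbours of LOC_Os12g35470, 4 had more signal in Swarna at both stages. LOC_Os12g35480, 1.26 kb away, was listed at 0 in both Pokkali groups and had 6.84 and 4.96 FPKM in Swarna NP and EP. LOC_Os12g35490 was also listed at 0 in both Pokkali groups, with 0.240 and 1.91 FPKM in Swarna NP and EP. Both were thus near 0 where LOC_Os12g35470 was not. Farther off, LOC_Os12g35440 had 0.144 and 0.237 FPKM in Pokkali NP and EP, against 1.80 and 4.45 FPKM in Swarna NP and EP. LOC_Os12g35395 had 0 and 0.0178 FPKM in Pokkali NP and EP, against 4.44 and 12.98 FPKM in Swarna NP and EP. Of the 4 neighbours lower in Pokkali at both stages, 3 were beside this locus and the remaining neighbour was LOC_Os11g39230. The other neighbours, LOC_Os12g35520 and LOC_Os12g35570, were within 2-fold at both stages. LOC_Os12g35520 had 2.99 and 1.77 FPKM in Pokkali NP and EP, against 2.22 and 2.29 FPKM in Swarna NP and EP. LOC_Os12g35570 had 17.8 and 22.4 FPKM in Pokkali NP and EP, against 9.71 and 30.1 FPKM in Swarna NP and EP.

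Next to LOC_Os12g44040, 2 loci were high in a single group. LOC_Os12g44050, of the same span, had 12.2 FPKM in Pokkali NP and 0.0365 in Pokkali EP, against 0.0610 and 0.0338 FPKM in Swarna NP and EP. LOC_Os12g44030 had 25.1 and 1.84 FPKM in Pokkali NP and EP, against 1.82 and 1.42 FPKM in Swarna NP and EP. In Pokkali, both differed more between NP and EP than LOC_Os12g44040 itself did. By contrast, LOC_Os01g73620 beside LOC_Os01g73604 was alike in the cultivars, with 12.6 and 13.2 FPKM in Pokkali NP and EP, against 15.3 and 13.3 FPKM in Swarna NP and EP.

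**Figure D4:**
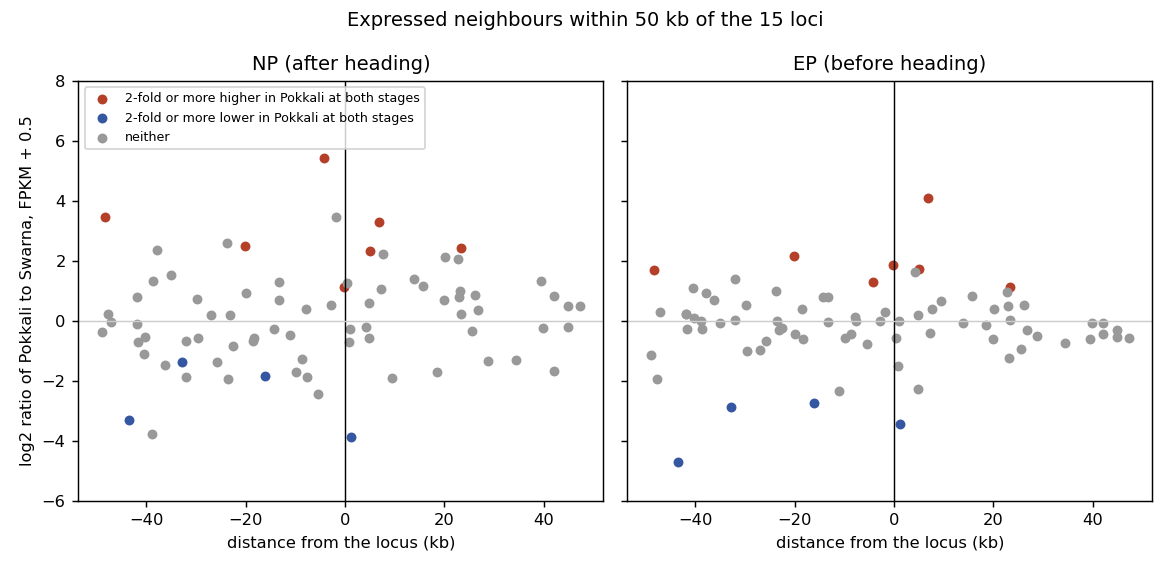
Log2 ratio of Pokkali to Swarna on FPKM plus 0.5 (y axis) of the 78 expressed neighbours outside the spans against their distance from the locus in kb (x axis), after heading (left) and before heading (right); red marks neighbours at least 2-fold higher and blue at least 2-fold lower in Pokkali at both stages. Of the 78, 7 are red, 4 are blue and 67 are grey.

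Cell wall genes were read beside the labelled tissue. No other organ was sequenced, so their levels cannot tell a peduncle from another tissue. The cellulose synthase genes *CESA1*, *CESA3*, *CESA8* (primary wall), *CESA4* and *CESA7* (secondary wall) had at least 5.25 FPKM in every group, and their summed level was 506 and 1364 FPKM in Pokkali NP and EP, against 126 and 617 FPKM in Swarna NP and EP. The sucrose transporter gene *SUT1* had 62.0 and 18.7 FPKM in Pokkali NP and EP, against 125 and 10.4996 FPKM in Swarna NP and EP. Of 4 genes tied to anther and pollen development (*EDT1*, *OsSpo11-4*, *OsABCG3* and *SWEET11*), 2 had at least 1 FPKM in every group. Their summed level was 22.1 and 106 FPKM in Pokkali NP and EP, against 4.16 and 26.8 FPKM in Swarna NP and EP, and none was at 0 in any group. *EDT1* made up most of the Pokkali sum, with 19.4 and 85.8 FPKM in Pokkali NP and EP, against 2.104 and 5.73 FPKM in Swarna NP and EP. Without it the sum was 2.68 and 20.3 FPKM in Pokkali NP and EP, against 2.05 and 21.1 FPKM in Swarna NP and EP. The genes in this sum did not share an order of the cultivars. In EP, *OsABCG3* (6.85 against 2.56 FPKM) and *OsSpo11-4* (7.21 against 6.99) were higher in Pokkali, and *SWEET11* (6.26 against 11.5) was lower. In NP, *OsSpo11-4* (2.29 against 1.58 FPKM) and *SWEET11* (0.342 against 0.235) were higher in Pokkali, and *OsABCG3* (0.0502 against 0.237) was lower. The study names *EDT1*, *OsABCG3* and *SWEET11* among anther genes that were higher in EP in these same samples. Their higher level in EP than in NP was thus set by that choice and is no readout of tissue. The part of the wall, sucrose transporter and anther genes in the levels of the 15 loci was not tested.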

How the data were processed

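RNA-seq libraries of peduncles were made with a stranded total RNA kit and sequenced as reads of 100 bp. The processing notes and the study's methods name the NGSQC Toolkit as the read filter used by the authors. Alignment was by HISAT2 (2.1.0), with version 7 of the Rice Genome Annotation Project as genome. StringTie (1.3.3b) and then Cuffmerge gave the merged assembly, and Cuffdiff and Cufflinks the expression values. The deposited FPKM values were used as they are, in 1 column per group, with the 3 libraries combined. The table has 73781 rows, of which 62671 name a single locus. Rows naming several loci (1407) and rows without a name (9703) were not counted as loci. Over the whole table, 2 and 6 of them met the rule. They were used around the 15 loci, and joined rows also in a summing alternative over all loci. Starts count from 0 in the table and were given from 1.

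Ratios were taken as log2 of FPKM plus 0.5. Expressed loci had at least 1 FPKM in some group. A linear model over libraries had been planned should single libraries be found. Families by description could not be counted, since 0 loci matched the reference of gene names (assembly ASM3414082v1). The 15 loci and the lists were chosen with earlier results of these data known. Loci named in the text were the 15 of the rule, those nearest its limits and, chosen after their values were seen, neighbours. The calculation was checked by planting low Swarna values and stage ratios in loci of the deposited values. Recovery of these was assured by the rule, so this checks the code only. Python 3.11.15, numpy 2.4.6, pandas 2.3.3 and matplotlib 3.10.9 were used. Other limits, row choices and scalings were tried.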

Additional observations from a re-analysis of the deposited data

How the results depend on the processing

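No paired analysis was possible because the table holds 1 column per group and none per library, so no library could be left out either. The number of loci that met the rule was 15. It was 40 with a Pokkali minimum of 1 FPKM and 0 with 5 FPKM, 61 with a Swarna limit of 0.5 FPKM, and 3 with a limit of 0.01 FPKM or with Swarna listed at 0. It was 14 and 17 with rows of a locus summed, without and with joined rows, 19 with columns at equal sums (13 of the 15 among them, without LOC_Os01g25050 and LOC_Os01g40320) and 15, the same loci, with columns at equal median ratio. Of the 15, 6 (40%) had a span that no other row shares, against 60.9% of the 12390 loci of that Pokkali level, an alternative chosen after seeing the data. The opposite set, of 92, held 145 loci with a minimum of 1 FPKM and 38 with 5 FPKM. The 2 loci past 2-fold between Pokkali NP and EP remained 2 with 0.1 or 1 added and under both scalings, and none passed 4-fold. The neighbours higher in Pokkali numbered 4 of 33 within 20 kb and 16 of 274 (5.84%) within 200 kb, and those lower 2 and 18 (6.57%). With loci of the same span added they were 9 and 4. With columns at equal sums, which moves the median log2 ratio of Pokkali to Swarna over all expressed loci by 0.20 in NP and −0.28 in EP, they were 5 and 5. These windows, additions and scalings of the neighbours were also chosen after seeing the data. FPKM values under 0.1 rest on few fragments and are the least precise.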

Other observations

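With the Swarna limit at 0.5 FPKM, the 46 further loci had a median Pokkali mean of 4.84 FPKM, and 2 of them had at least 10 FPKM in both Pokkali groups.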
